A study of Mus musculus with 16 samples.

Results

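Janus kinases (JAKs) are tyrosine kinases bound to the inner tails of cytokine receptors. When a cytokine joins its receptor chains, the JAKs phosphorylate each other, the receptor and STAT factors, which then enter the nucleus and start transcription. Tyrosine phosphatases and adaptors end the signal, and in macrophages the pathway carries the responses to interferons, interleukins and colony-stimulating factors. The genes described here are the 4 kinases of the family (Jak1, Jak2, Jak3 and Tyk2), 4 phosphatases that act on them or on their receptors (Ptpn1, Ptpn2, Ptpn6 and Ptpn11) and the adaptor Sh2b3. These 9 genes were chosen by name, with earlier results of these data known, and each was matched to 1 identifier in the table of 55487 genes. Their counts, set beside the share of all genes, are therefore descriptive.

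RNA was sequenced from BMDMs, macrophages that are matured in a dish from marrow cells, here of WT Balb/c mice of 8 weeks. All 16 samples come from such cultures, in 6 groups. DMEM (n = 2) had medium alone, and DMEM + Rux (n = 3) had medium with ruxolitinib, for which the labels give no dose or time. CM (n = 3) had conditioned medium of 4T1 cells, a mouse mammary tumor line. CM + Rux (n = 3, with 4 h in its labels) had CM with 0.5 μM ruxolitinib, an inhibitor of JAK1 and JAK2. CM + Rux 2 h (n = 2) carries the same treatment with 2 h in its labels, and what that time refers to is not stated. CM + Rux + IKK-16 (n = 3) had in addition 0.8 μM IKK-16, an inhibitor of the IKK kinases that lie upstream of NF-κB. The labels of DMEM, CM and CM + Rux + IKK-16 give no time either, so whether they match the 4 h of CM + Rux is not stated there. Whether replicates came from separate mice or cultures is not stated, so p-values measure the spread between these samples, which may be technical. The RNA reports the transcript of each kinase and phosphatase, not its protein, phosphorylation or activity.

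The coordinates below are on mouse build GRCm38. Jak1 (ENSMUSG00000028530) lies on chr4:101152367-101265282, Jak2 (ENSMUSG00000024789) on chr19:29251828-29313080, Jak3 (ENSMUSG00000031805) on chr8:71676296-71690575 and Tyk2 (ENSMUSG00000032175) on chr9:21104068-21131243. Ptpn1 (ENSMUSG00000027540) lies on chr2:167932057-167979385 and Ptpn6 (ENSMUSG00000004266) on chr6:124720707-124738714. Ptpn2 is ENSMUSG00000024539. Ptpn11 (ENSMUSG00000043733) on chr5:121130533-121191397 and Sh2b3 (ENSMUSG00000042594) on chr5:121815488-121837646 share a chromosome. Of the 9, Jak3 is the gene whose exons overlap those of another gene on the same strand. It shares 404 bases, 7.55% of its exon length, with Insl3, and fragments assigned to both genes were not counted.

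The proximal promoters of the kinase with the largest change in CM (Jak2) and of the kinase that was not called in CM (Tyk2) are shown to set their base composition side by side. They are the 250 bases before the RefSeq start (GRCm38.p6), read 5′ to 3′ on the strand of the gene, at chr19:29251553-29251802 (plus strand) for Jak2 and chr9:21131276-21131525 (minus strand) for Tyk2. Capitals mark GC boxes (GGGCGG, or CCGCCC on the other strand) and CCAAT boxes (CCAAT, or ATTGG on the other strand).
Jak2: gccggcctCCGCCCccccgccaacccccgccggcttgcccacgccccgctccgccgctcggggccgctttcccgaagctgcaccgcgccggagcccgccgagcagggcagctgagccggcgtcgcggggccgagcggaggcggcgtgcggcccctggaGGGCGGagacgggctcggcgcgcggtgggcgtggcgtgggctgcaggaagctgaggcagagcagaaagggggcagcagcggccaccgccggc
Tyk2: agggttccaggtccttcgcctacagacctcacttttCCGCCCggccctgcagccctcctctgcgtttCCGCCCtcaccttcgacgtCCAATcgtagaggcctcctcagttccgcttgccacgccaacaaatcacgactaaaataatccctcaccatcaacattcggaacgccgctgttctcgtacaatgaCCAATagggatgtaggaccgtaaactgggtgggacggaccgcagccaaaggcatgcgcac
The Jak2 stretch is 80.8% G or C and the Tyk2 stretch 57.2%. Over windows of 300 bases (250 before to 50 after the start), 8 of the 9 genes were matched in the RefSeq table used here, and their GC content ran from 54.33% (Jak3) to 81.0% (Jak2), against a median of 52.67% over 32851 windows. Jak2 stood at percentile 99.35 of all windows and Ptpn1, at 74%, at percentile 95.56. Each window was searched on both strands for a GAS element (TTCNNNGAA), the core of an ISRE (GAAA repeated after a gap of 2 bases), the κB consensus and an AP-1 site (TGANTCA). These letters are in 8.3%, 3.44%, 4.51% and 7.81% of all windows, and in none of the 8 members' windows. A GC box is in 35.7% of all windows and in 7 of the 8 (Sh2b3 has none), and a CCAAT box is in 37.4% and in the windows of Jak1 and Tyk2.

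The libraries held 18449388 to 46215853 counted fragments. The 9 genes were read deeply, from 364 fragments for Ptpn2 to 30580 for Jak2 in a single sample, and each was above the filter of 1 CPM, a count scaled to the size of the library, in all samples. CPM values here are scaled by relative log expression (RLE), and RPKM values divide them by exon length, so that genes can be compared. All 8 macrophage markers were detected in every sample, with a summed level of 40148 to 57183 CPM. Lyz2 was the largest part of that sum, at 28541.5 to 38035.6 CPM. Cd14 (1407 to 15920 CPM), Fcgr1 (32.6 to 232), Mertk (4.58 to 32.0) and Itgam (93.4 to 266) varied more between samples than Lyz2, Adgre1, Csf1r and Cd68. Of 9 T and NK cell markers, Cd3g, Trac, Ncr1, Gzma and Prf1 were at 0 in all 16 samples, as were Pax5 of B cells, Ly6g of neutrophils and Krt14 of epithelial cells. Other markers of these lists were detected at low levels. The summed level of 5 B cell markers was 1.07 to 1.23 CPM in the DMEM groups and 0.122 to 0.267 CPM in CM, that of 6 epithelial markers 0 to 0.231 CPM and 0.733 to 1.45 CPM, and that of 6 neutrophil markers 0 to 0.0924 CPM and 0.167 to 0.683 CPM. The 5 fibroblast markers summed to 5.74 to 20.9 CPM over all samples. The part of these cells in the results was not tested.

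The macrophages in DMEM held transcripts of all 4 kinases, led by Jak1, and in CM Jak2 was the leading kinase. Jak1 serves a wide range of cytokine receptors, including those of interferons and of the IL-6 family. In DMEM its level was 38.0 ± 1.16 RPKM (SD, n = 2), followed by Tyk2, the partner kinase of type I interferon and IL-12 receptors, at 19.8 ± 2.85. Jak2, which serves the receptors of GM-CSF, IL-3 and interferon-γ, was at 12.1 ± 3.07 RPKM, and Jak3, the partner of the common γ chain, at 5.0 ± 0.402. In CM the order was Jak2 at 145 ± 6.08 RPKM (n = 3), Jak1 at 61.5 ± 4.60, Tyk2 at 19.4 ± 1.78 and Jak3 at 11.8 ± 0.848. Jak2 thus went from 16% ± 2.51 of the summed JAK RPKM in DMEM to 61.1% ± 2.18 in CM, while the share of Jak1 was 50.9% ± 3.54 and 25.8% ± 1.38, and that of Tyk2 26.4% ± 1.17 and 8.13% ± 0.706. The summed JAK level was 74.9 ± 7.49 RPKM in DMEM, 238 ± 7.03 in CM, 218 ± 5.55 in CM + Rux and 149 ± 2.73 in CM + Rux + IKK-16. With both inhibitors Jak2 still held the largest share, 52.2% ± 3.11. The shares are given as a description, with no test of their own.

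**Figure D1:**
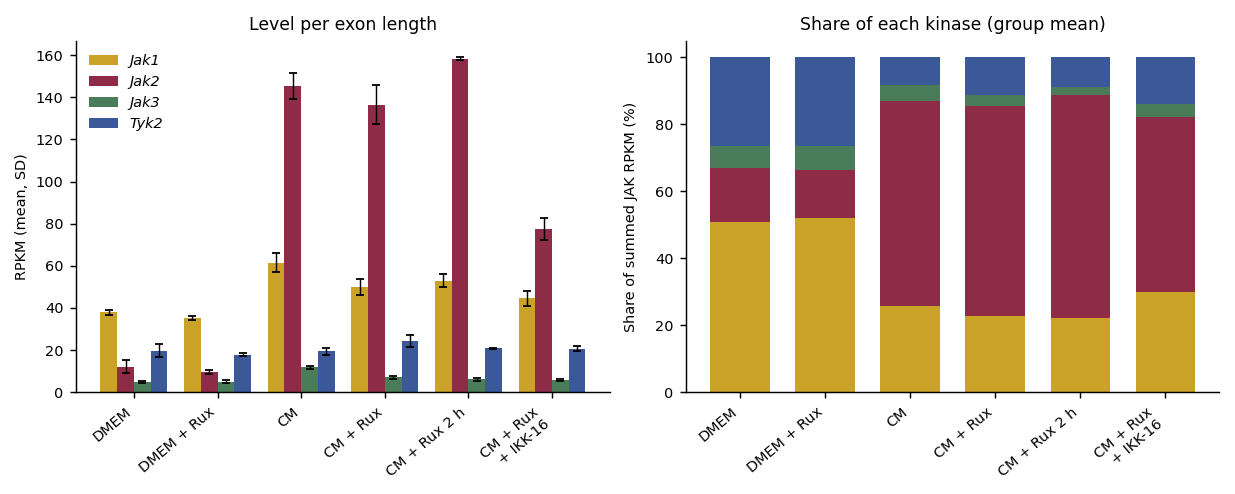
Left, the level of each JAK gene in RPKM (bars, mean; whiskers, SD; n = 2 for DMEM and CM + Rux 2 h, otherwise 3) in the 6 groups. Right, the mean share of each kinase in the summed JAK RPKM of a sample. Jak1 has the tallest bar in both DMEM groups and Jak2 in all 4 CM groups.

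Among the phosphatases, Ptpn6 (which encodes SHP-1, a tyrosine phosphatase of blood cells) had the highest level per length in DMEM, 169 ± 18.2 RPKM. Sh2b3, which encodes LNK, an adaptor that binds and restrains JAK2, was at 34.4 ± 3.48 RPKM. Ptpn1 (PTP1B, which dephosphorylates JAK2 and TYK2) was at 25.4 ± 1.86, Ptpn11 (SHP-2, which mostly relays growth factor signals to Ras) at 19.9 ± 1.26 and Ptpn2 (TC-PTP, which acts on JAK1, JAK3 and STAT factors) at 6.46 ± 0.534. In CM, Ptpn6 was at 131 ± 2.95 RPKM, below Jak2, and Ptpn1 at 99.8 ± 8.80. For each Jak2 transcript per length there were 14.3 ± 2.13 of Ptpn6 and 2.20 ± 0.714 of Ptpn1 in DMEM, and 0.904 ± 0.0584 and 0.687 ± 0.0568 in CM. The ranges of the samples of DMEM and CM did not overlap for either ratio.

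The first comparison set CM against medium alone. No medium conditioned by other cells was among the samples, so tumor factors and other differences between the media cannot be told apart. Of the 9 genes, 6 rose in CM and none fell. Jak2 rose most, followed by the phosphatase genes Ptpn1 and Ptpn2, then Jak3, Jak1 and Ptpn11. Tyk2, Ptpn6 and Sh2b3 did not pass the thresholds, which were 0.05 for the adjusted p and 0.5 for the size of the log2 fold change. Of all 12372 genes tested, 45% were called in either direction and 20.9% were called higher, so that a called gene is common in this comparison. With total counts alone, 1536 genes were called higher and 4606 lower, against 2584 and 2980 with RLE. Samples of the groups did not overlap for 8 of the 9, Tyk2 being the exception, against 74.8% of all genes.

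Jak2 was at 71.6 and 49.8 CPM in the DMEM samples and at 735, 761 and 700 CPM in the CM samples. The lowest CM sample lay far above the highest DMEM sample, and the fitted log2 fold change was 3.59 (SE 0.147, adjusted p = 1.0e-09), at percentile 98.0 of all genes. Ptpn1 was at 133 and 148 CPM in DMEM and at 607, 538 and 513 CPM in CM. This is a log2 fold change of 1.97 (SE 0.136, adjusted p = 5.2e-08), and Ptpn1 was the only other one of the 9 above percentile 95. Ptpn2 was read at 19.0 and 21.4 CPM in DMEM and at 51.7, 59.4 and 42.6 CPM in CM, a log2 fold change of 1.35 (SE 0.182, adjusted p = 2.2e-05). Both phosphatase genes were thus higher in every CM sample than in either DMEM sample.

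Jak3 was at 28.3 and 25.2 CPM in DMEM and at 62.3, 59.1 and 68.1 CPM in CM, a log2 fold change of 1.24 (SE 0.132, adjusted p = 2.7e-06). Jak3 is best known in lymphocytes. The summed level of the 9 T and NK cell markers was 0.0409 to 0.134 CPM in the 2 DMEM groups and 0.505 to 1.17 CPM in CM, and in CM 8 of the 9 markers, all but Cd247, were at 0. Their part in the result was not tested. In bulk RNA, fewer cells of a type and less RNA per cell cannot be told apart.

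Jak1 was at 281 and 269 CPM in DMEM and at 482, 420 and 431 CPM in CM (log2 fold change 0.69, SE 0.0906, adjusted p = 1.7e-05). Ptpn11 was at 156 and 142 CPM in DMEM and at 237, 231 and 227.4 CPM in CM (0.64, SE 0.0757, adjusted p = 7.0e-06). These were the smallest of the 6 rises. Both rest on the scaling: RLE moved the median of all genes in this comparison by 0.31 against total counts, and with total counts alone the values were 0.39 and 0.33 and neither gene was called.

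The samples of Tyk2 overlapped, at 150 and 122 CPM against 143, 119 and 136 CPM, with a log2 fold change of -0.04 in CM (95% interval -0.27 to 0.20, adjusted p = 0.80). Ptpn6 was at 509 and 437 CPM in DMEM and at 367, 360 and 376 CPM in CM, and Sh2b3 at 154 and 177 CPM and at 121, 146 and 140 CPM. Every CM sample was below both DMEM samples for these 2 genes. Their log2 fold changes, -0.36 (adjusted p = 0.0044) and -0.28 (adjusted p = 0.048), were inside the fold threshold. With total counts alone they were -0.67 and -0.60, and both were called lower.

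**Figure D2:**
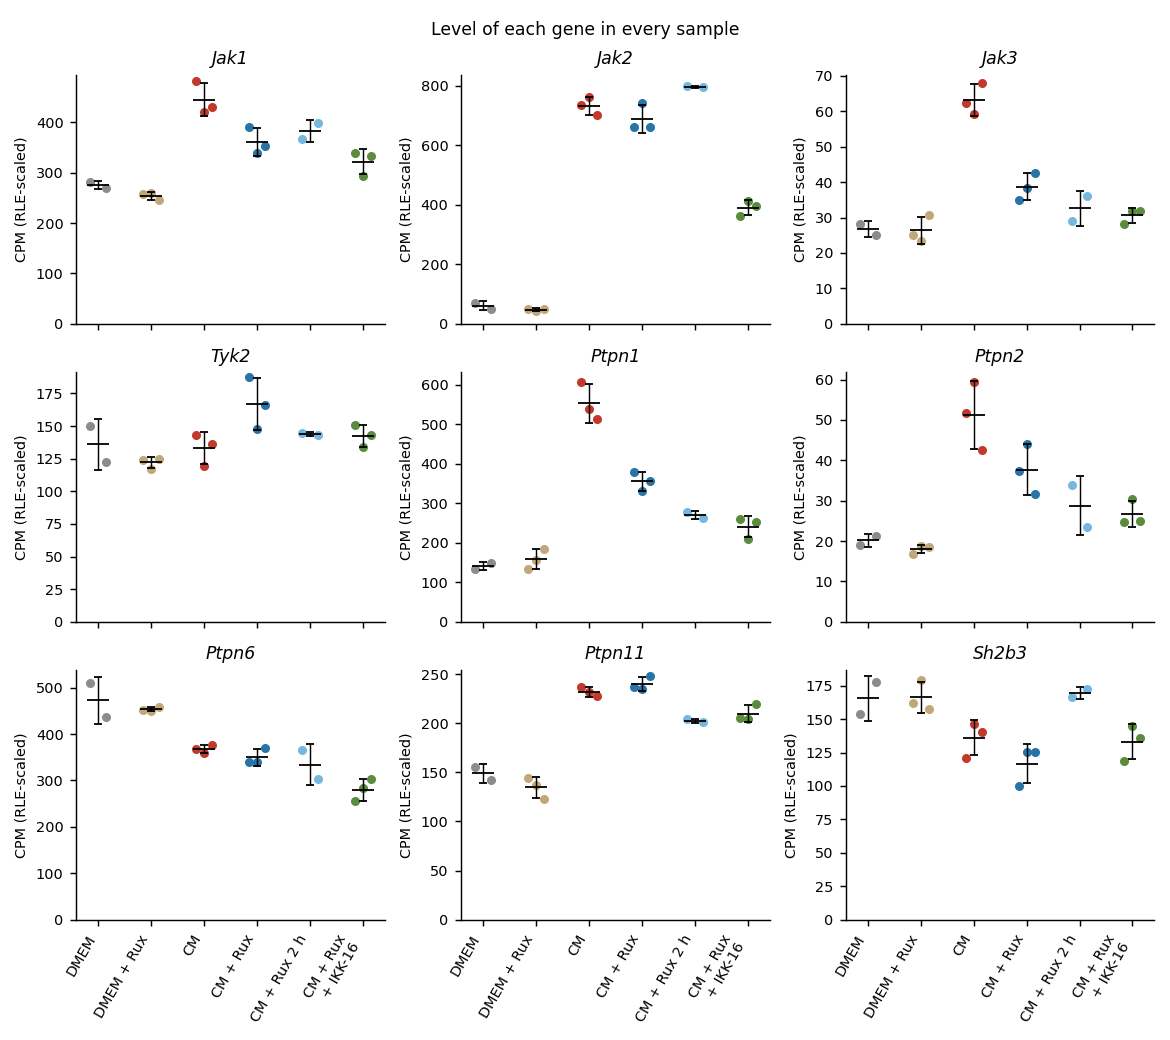
RLE-scaled CPM of the 9 genes (1 panel each, axis from 0) in every sample of the 6 groups. Points are samples, and the bar and whiskers are the mean and SD. Jak2 samples in CM sit between 700 and 761 CPM and those with IKK-16 between 362 and 414 CPM, while Tyk2 stays between 117 and 188 CPM in all groups.

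The partners of the kinases moved in both directions in CM. Of 39 cytokine receptor genes that signal through JAKs, 27 were expressed enough to be tested, and 12 were called higher and 4 lower. The share called was 59.3%, against 45% of all genes. The chain Il4ra, shared by the receptors of IL-4 and IL-13, was at 964 ± 225 CPM against 46.1 ± 8.30 in DMEM, and Il2ra, the IL-2 receptor α chain, at 10.5 ± 1.61 against 0.0614 ± 0.0868. Lifr, the LIF receptor, had a log2 fold change of -2.16 and Il12rb2, of the IL-12 receptor, of -1.47. Of the 7 STAT genes 3 rose and none fell, with Stat4 at 2.59 and Stat3 at 2.32. That is 42.9% called, near the 45% of all genes. Of the 12 SOCS and PIAS genes, which encode inhibitors of the pathway, 6 rose and 2 fell (66.7% called, against the same 45%). Socs3 was at 2116 ± 419 CPM in CM against 11.2 ± 8.53 in DMEM, and Cish at 135 ± 12.4 against 0.135 ± 0.0177. Pias3 (-0.80) and Socs6 (-0.53) fell.

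Of 11 other brakes and adaptors tested, 1 rose and 3 fell (36.4% called, against 45% of all genes). Sh2b2 (APS), a relative of Sh2b3 in the same adaptor family, was at 69.6 ± 6.18 CPM in CM and 6.09 ± 0.966 in DMEM, a log2 fold change of 3.51 (SE 0.183, adjusted p = 4.5e-09), while Sh2b3 itself was not called. Dusp3 (-1.56) and the ubiquitin ligase gene Cblb (-1.08) fell. Of 11 other non-receptor tyrosine phosphatase genes tested, 3 rose and 3 fell (54.5% called, against the same 45%). Ptpn22, a phosphatase known from lymphocyte signaling, fell by 2.58 on the log2 scale, from 16.9 ± 0.268 to 2.80 ± 0.460 CPM. The median log2 fold change was 0.69 over the 9 genes, 0.36 over the receptors, 0.32 over the STAT genes, 0.48 over the SOCS and PIAS genes, 0.27 over the other brakes, 0.26 over the other phosphatases and -0.00 over all genes tested.

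The second comparison asked what ruxolitinib changes in CM. Jak3 and Ptpn1 fell, and 3.33% of all genes were called in either direction, 2.13% as lower. The leading kinase, Jak2, was not called. Samples did not overlap for 4 of the 9, with Jak1, Jak3 and Ptpn1 below and Tyk2 above CM, against 19.2% of all genes.

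Jak3 was at 62.3, 59.1 and 68.1 CPM in CM and at 35.1, 38.3 and 42.6 CPM in CM + Rux. Its log2 fold change was -0.71 (SE 0.113, adjusted p = 0.0022). Ptpn1 was at 607, 538 and 513 CPM in CM and at 379, 331 and 355 CPM in CM + Rux. Its log2 fold change was -0.64 (SE 0.113, adjusted p = 0.0043). For both, every CM + Rux sample was below every CM sample and above every DMEM sample. Jak2 in CM + Rux was at 659, 741 and 659 CPM, within or just below its range in CM, and its log2 fold change of -0.09 had a 95% interval of -0.33 to 0.15 (adjusted p = 0.82), which leaves out a fall as large as that of Jak3.

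Jak1 was at 391, 339 and 352 CPM in CM + Rux, all below its lowest CM sample of 420 CPM. Its log2 fold change was -0.30 (SE 0.0794, adjusted p = 0.046), inside the fold threshold. Tyk2, at 188, 148 and 166 CPM, was above its highest CM sample of 143 CPM in all 3 samples, with a log2 fold change of 0.33 (95% interval 0.12 to 0.54) and an adjusted p of 0.078. Ptpn2 was at 37.4, 44.1 and 31.5 CPM, a range that overlaps that of CM, and its value of -0.44 (95% interval -0.77 to -0.11) had an adjusted p of 0.14. Ptpn6 (-0.07, 95% interval -0.26 to 0.11), Ptpn11 (0.05, -0.09 to 0.19) and Sh2b3 (-0.22, -0.45 to 0.01) overlapped between the groups.

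Among the pathway's other genes, every call with ruxolitinib in CM was a fall. It was 5 of the 27 receptors (18.5%, against 2.13% of all genes called lower), among them Il6ra (the IL-6 receptor, -1.31) and Il2ra (-1.58). Stat2 (-0.85), a factor that carries type I interferon signals, fell. Of the 12 SOCS and PIAS genes, Cish (-1.05) and Socs2 (-1.90), both known as STAT5 targets, fell. Of the 11 other brakes Usp18, which restrains type I interferon receptors, fell by 3.25 on the log2 scale, from 16.5 CPM in CM to 1.75 CPM. The median over the 9 genes was -0.22, against 0.01 over all genes tested.

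**Figure D3:**
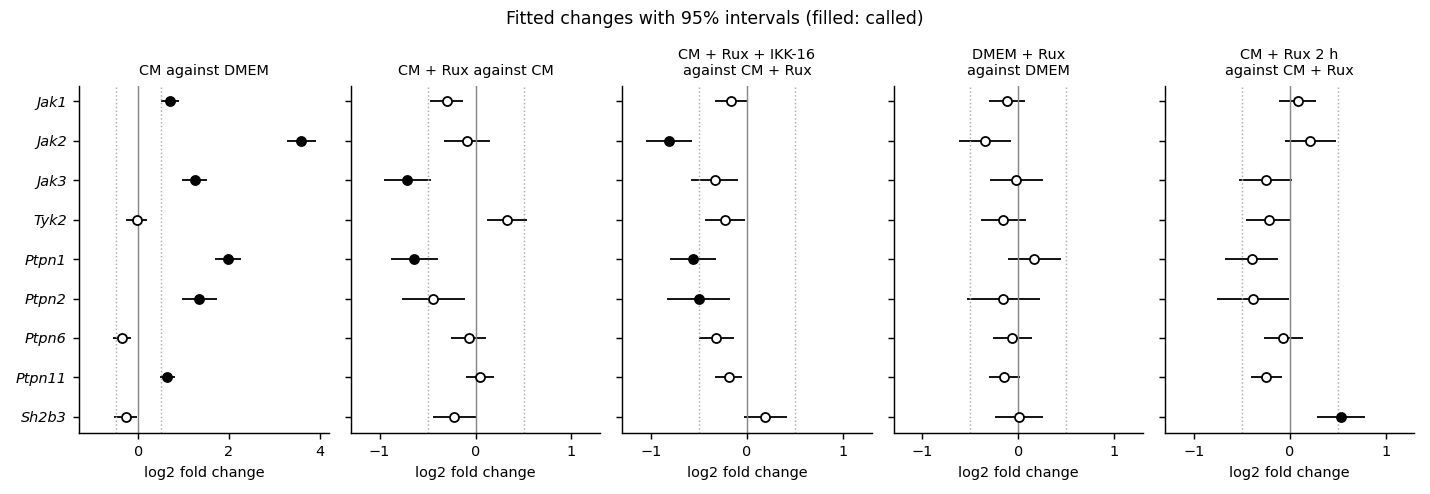
Fitted log2 fold changes (points) with 95% intervals (lines) of the 9 genes in 5 comparisons. Filled points passed both thresholds and dotted lines mark a log2 fold change of 0.5 in either direction. The first panel has a wider axis. Jak3 and Ptpn1 are filled below 0 with ruxolitinib in CM, and Jak2, Ptpn1 and Ptpn2 with IKK-16.

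The third comparison asked which of these transcripts differ when IKK-16 is added to CM + Rux. No sample had IKK-16 without ruxolitinib. An effect of IKK-16 by itself and an effect that needs ruxolitinib therefore cannot be told apart. Jak2, which was not called with ruxolitinib, fell, as did Ptpn1 and Ptpn2. The share of all genes called was 7.74% in either direction and 3.66% as lower. With total counts alone, 727 genes were called higher and 350 lower, against 504 and 453 with RLE. For 6 of the 9 (Jak2, Jak3, Ptpn1, Ptpn2, Ptpn6 and Ptpn11) every sample with IKK-16 was below every CM + Rux sample, against 17.1% of all genes in that direction and 31.5% without overlap in either. This comparison uses the same CM + Rux samples as the one before.

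Jak2 was at 659, 741 and 659 CPM in CM + Rux and at 362, 414 and 396 CPM with IKK-16. The log2 fold change was -0.81 (SE 0.112, 95% interval -1.05 to -0.57, adjusted p = 5.0e-04), at percentile 2.87 of all genes. No alternative ended this call. With IKK-16, Jak2 was still above its highest DMEM sample of 71.6 CPM in every sample.

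Ptpn1 was at 259, 211 and 251 CPM with IKK-16, below the lowest CM + Rux sample of 331 CPM, with a log2 fold change of -0.56 (SE 0.113, adjusted p = 0.0052). Ptpn2 was at 24.7, 30.3 and 25.0 CPM, just below the lowest CM + Rux sample of 31.5 CPM, with a log2 fold change of -0.50 (SE 0.155, adjusted p = 0.043). Both lie close to the fold threshold. Ptpn1 was inside it with total counts alone (-0.48) and without replicate 2 of CM + Rux + IKK-16 (-0.48). Ptpn2 was inside it with the replicate number as a block (-0.497, adjusted p = 0.0011) and with TMM scaling (-0.49), and it lost its call without replicate 1 or 2 of CM + Rux (-0.51 and -0.38) or replicate 1 or 3 of CM + Rux + IKK-16 (-0.45 and -0.46).

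Jak3 was at 28.1, 31.8 and 31.9 CPM with IKK-16, below the 35.1 CPM of the lowest CM + Rux sample, with a log2 fold change of -0.34 (95% interval -0.58 to -0.09) and an adjusted p of 0.064. Ptpn6, at 255, 283 and 302 CPM against 339, 339 and 370 CPM, had an adjusted p of 0.023 and a log2 fold change of -0.32, inside the fold threshold. Ptpn11 (-0.19, 95% interval -0.33 to -0.05) was also lower in every sample, with an adjusted p of 0.070. Jak1 (-0.16, -0.33 to 0.01), Tyk2 (-0.23, -0.44 to -0.02) and Sh2b3 (0.19, -0.04 to 0.42) overlapped with CM + Rux.

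Stat5a (-1.31) and Stat3 (-0.69) were the STAT genes that fell with IKK-16, and Socs1 (-1.56) and Cish (-0.83) the SOCS genes that fell. Socs1 went from 15.2 to 5.16 CPM. Among the 27 receptors, Il7r (0.74) rose and Il2ra (-2.28) fell, a share called of 7.41% against 7.74% of all genes. Of the other brakes Dusp3 (0.57) rose and Ptprj (-0.92), a receptor-type phosphatase gene, fell. The median over the 9 genes was -0.32, against -0.00 over all genes tested.

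The 6 genes that rose in CM can be set on 1 scale by the part of the CM minus DMEM difference that is seen in each inhibitor group, from group means of CPM. For Jak2 it was 93.3% in CM + Rux and 49.2% in CM + Rux + IKK-16. For Jak3 it was 32.7% and 10.6%, for Ptpn1 52.0% and 24.2%, for Ptpn2 56.4% and 20.9%, and for Jak1 50.6% and 27.7%. For Ptpn11 it was 109% and 73.5%. The values share the DMEM and CM samples, by which the 6 genes were also picked, and are given with no test. The rises of Jak1 and Ptpn11 in CM were not called with total counts alone, so their percentages rest on the scaling.

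Ptpn1 fell with ruxolitinib in CM while Jak2 was not called, and their ratio can be given in each sample. The ratio restates those changes in the same samples and is not a further test. In CM + Rux there were 0.473 ± 0.0595 Ptpn1 transcripts per length for each of Jak2, against 0.687 ± 0.0568 in CM, and the ranges (0.407 to 0.522 and 0.643 to 0.751) did not overlap. With IKK-16 the ratio was 0.564 ± 0.0951, which overlaps both. The ratio of Ptpn6 to Jak2 was 0.904 ± 0.0584 in CM, 0.918 ± 0.0930 in CM + Rux and 1.29 ± 0.0740 with IKK-16.

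**Figure D4:**
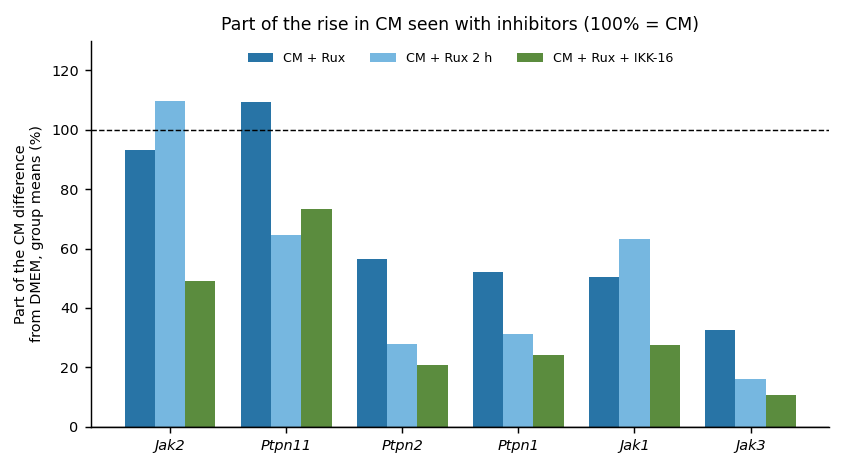
Difference of each inhibitor group from DMEM, as a percentage of the difference of CM from DMEM, from group means of CPM (bars, no error shown), for the 6 genes that rose in CM. The dashed line is the level of CM. The bars of Jak1 and Ptpn11 rest on the RLE scaling. Jak2 is at 93.3% in CM + Rux and 49.2% in CM + Rux + IKK-16, and Jak3 has the lowest bar of the 6 genes in each group.

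In DMEM + Rux against DMEM, without CM, none of the 9 genes was called, and 0.97% of all genes were called, all as lower. At an unadjusted p under 0.05 it was 1 of the 9, Jak2, against 5.2% of all genes, and DESeq2 also called 0. Samples did not overlap for 2 of the 9, Jak1 and Ptpn2, against 18.5% of all genes.

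Jak2 was at 71.6 and 49.8 CPM in DMEM and at 51.1, 43.3 and 49.5 CPM in DMEM + Rux. The 2 DMEM samples lie further apart than the whole range of DMEM + Rux. The log2 fold change of -0.34 (95% interval -0.61 to -0.07) had an unadjusted p of 0.017 and an adjusted p of 0.65, and without replicate 2 of DMEM it was -0.58 and called (adjusted p = 0.024). The other 8 genes had log2 fold changes between -0.16 (Ptpn2, 95% interval -0.54 to 0.22) and 0.17 (Ptpn1, -0.11 to 0.44), each with an adjusted p of 1. Jak3 was at 25.0, 23.5 and 30.6 CPM in DMEM + Rux (-0.02, -0.30 to 0.25) and Ptpn1 at 134, 157 and 184 CPM, so that the level of both overlapped with DMEM. Stat2 (-1.46), Socs1 (-1.76) and Usp18 (-2.89) fell in the same samples.

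An interaction term asked whether the effect of ruxolitinib differs between CM and DMEM. The labels give no dose or time for ruxolitinib in DMEM, so medium, dose and time cannot be told apart in this term. None of the 9 was called, against 0.412% of all genes, and at an unadjusted p under 0.05 it was 3 (Ptpn1, Jak3 and Tyk2), against 9.08% of all genes. The difference of the 2 effects was -0.81 for Ptpn1 (95% interval -1.17 to -0.44, adjusted p = 0.053), -0.69 for Jak3 (-1.06 to -0.32, adjusted p = 0.11) and 0.49 for Tyk2 (0.17 to 0.80, adjusted p = 0.19). With the replicate number as a block, Ptpn1 (-0.79, adjusted p = 0.017) and Jak3 (-0.60, adjusted p = 0.0091) were called, in a fit that called 444 of all genes, against 51 without the block. DESeq2 called the same 2 genes among 237 in all, as did the fit without a filter on low counts among 349, and without replicate 1 of DMEM + Rux it was Ptpn1 (-0.91, adjusted p = 0.037). For Jak2 the difference was 0.25 (-0.11 to 0.61, adjusted p = 0.81).

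CM + Rux set against DMEM gives the effect of CM and ruxolitinib together. Of the 9 genes, 5 were higher and 1 lower, against 43.5% of all genes called, 20.4% as higher and 23.2% as lower (1550 and 4404 genes with total counts alone, 2519 and 2865 with RLE). Samples did not overlap for 8 of the 9, against 74.3% of all genes. Jak2 (3.50), Ptpn1 (1.33), Ptpn2 (0.91), Ptpn11 (0.69) and Jak3 (0.53) rose, and Sh2b3 fell by 0.50 (adjusted p = 0.0019), at 100.1, 125 and 125 CPM against 154 and 177 CPM. RLE moved the median of all genes by 0.29 here, and with total counts alone Jak3 (0.24) and Ptpn11 (0.40) were not called and Ptpn6 (-0.72) was called lower. The calls of Jak3 and Sh2b3 lie at the fold threshold. Jak3 was inside it without replicate 3 of CM + Rux (0.46) or replicate 2 of DMEM (0.45) and with the replicate block (0.45), Sh2b3 without replicate 1 of CM + Rux (-0.40) or replicate 2 of DMEM (-0.40), and Ptpn6 (-0.44) was called without replicate 2 of DMEM (-0.54). Jak1 (0.39, adjusted p = 0.0018) was inside the fold threshold, and Tyk2 (0.30, adjusted p = 0.031) likewise.

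The 2 samples with 2 h in their labels differed from CM + Rux in Sh2b3, which was at 167 and 173 CPM against 100.1, 125 and 125 CPM. The log2 fold change was 0.54 (SE 0.117, adjusted p = 0.0026), and both samples were in the range of DMEM (154 and 177 CPM). It was the 1 call among the 9, and 23.3% of all genes were called in either direction, 12.6% as higher. The call was lost with total counts alone (0.47), with the replicate block (0.48) and without replicate 1 of CM + Rux (0.44), and without replicate 2 of the 2 h group Ptpn2 was called (-0.68). Samples did not overlap for 5 of the 9, with Jak2 and Sh2b3 above and Tyk2, Ptpn1 and Ptpn11 below CM + Rux, against 59.6% of all genes.

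Jak2 was at 798 and 794 CPM in the 2 h samples, the highest levels of any sample, with a log2 fold change of 0.21 (95% interval -0.05 to 0.48, adjusted p = 0.19). Ptpn1, at 276 and 263 CPM, and Ptpn11, at 204 and 201 CPM, had adjusted p-values of 0.025 and 0.020 with log2 fold changes of -0.40 and -0.24, inside the fold threshold. Jak3 was at 29.1 and 36.1 CPM (-0.25, -0.52 to 0.03). The ratio of Ptpn1 to Jak2 per length, 0.308 ± 0.010, was the lowest of the 6 groups. Stat5a (1.22), Stat5b (0.53) and Cish (0.80) rose in the 2 h samples and Socs1 (-1.80) and Stat3 (-0.58) fell. Ptpn22, which fell in CM, was at 21.2 ± 5.22 CPM against 4.67 ± 1.71 in CM + Rux (log2 fold change 2.17). Of the 5 dendritic cell markers the summed level was 8.78 to 12.8 CPM in the 2 h samples and 0.877 to 2.73 CPM in all others, with Flt3 at 0 in the 2 h samples and Zbtb46 reaching 12.3 CPM. Their part in these results was not tested.

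By mean level, the order of the groups for Jak2 was CM + Rux 2 h, CM, CM + Rux, CM + Rux + IKK-16, DMEM and DMEM + Rux. Its neighbours CM and CM + Rux overlapped, as did DMEM and DMEM + Rux. For Jak3 it was CM first, with no overlap with the next group, and then CM + Rux, CM + Rux 2 h, CM + Rux + IKK-16, DMEM and DMEM + Rux, where each group overlapped with its neighbour. For Ptpn1 it was CM, CM + Rux, CM + Rux 2 h and CM + Rux + IKK-16 with no overlap between neighbours, though CM + Rux 2 h and CM + Rux + IKK-16 were apart by less than their SDs, then DMEM + Rux and DMEM, which overlapped. For Jak1 it was CM, CM + Rux 2 h, CM + Rux, CM + Rux + IKK-16, DMEM and DMEM + Rux. CM + Rux overlapped with CM + Rux 2 h and with CM + Rux + IKK-16, which did not overlap with each other. For Ptpn2 the order was that of Jak3, with overlap between neighbours from CM to CM + Rux + IKK-16. Ptpn11 was highest in CM + Rux and CM, which overlapped, and lowest in the DMEM groups, which overlapped too. Tyk2 was highest in CM + Rux and overlapped between neighbours in the 5 other groups. Sh2b3 was highest in CM + Rux 2 h and the DMEM groups, which overlapped, and lowest in CM + Rux. For Ptpn6 the order was the reverse in part, with DMEM and DMEM + Rux highest, at 473 ± 50.9 and 453 ± 4.46 CPM, and CM + Rux + IKK-16 lowest, at 280 ± 23.6 CPM.

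The genes whose log2 CPM was most like that of each kinase over the 16 samples were named by Pearson's r, over points that share the wide difference between the DMEM and the CM groups. For Jak2 they were Gtf2f1 (0.996), a subunit of the general transcription factor TFIIF, Bcl2a1d (0.996), an anti-apoptotic BCL2 relative, and Pde4b (0.996), a cAMP phosphodiesterase. Pearson's r does not take in the size of a change, and Gtf2f1 was at 56.9 ± 2.28 CPM in DMEM and 112 ± 3.72 in CM. Pde4b was at 45.6 ± 19.7 CPM in DMEM, 421 ± 31.0 in CM, 389 ± 38.7 in CM + Rux and 270 ± 35.1 with IKK-16. Bcl2a1d has near-identical copies in the mouse genome, so its level is uncertain. For Jak3 they were Fcgr2b (0.972), the inhibitory IgG receptor, Xbp1 (0.966), a factor of the unfolded protein response, and Selp (0.940), P-selectin. Fcgr2b was at 61.5 ± 3.26 CPM in DMEM, 720 ± 82.6 in CM, 269 ± 89.1 in CM + Rux and 106 ± 42.7 with IKK-16. Selp was low throughout, at 3.37 ± 0.116 CPM in CM, 0.263 ± 0.0449 in CM + Rux and 0.0352 ± 0.00804 in DMEM. For Jak1 they were Zfp800 (0.959), Epop (0.953) and Atp11a (0.952), and for Tyk2 Atf6b (0.920), Mocs1 (0.903) and Kif3c (0.880).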

How the data were processed

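RNA of 16 BMDM samples in 6 groups was analysed, with groups and replicate numbers from the sample titles. Per the labels, the authors trimmed reads with Trimmomatic 0.33, aligned them to GRCm38 with HISAT2 2.1.0 and counted fragments with featureCounts 1.6.2. The deposited values are whole-number counts of 55487 Ensembl genes, without scaling or filter, counted with both ends mapped in reverse-stranded orientation at a mapping quality of at least 10. Totals of 18449388 to 46215853 counts per sample set the precision. Symbols were matched by stable identifier to an annotation of GRCm38 for 55141 genes, and the other 346 hold at most 0.0459% of a sample's counts.

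After RLE scaling, the 12372 genes that exceeded 1 CPM in 2 or more samples entered the edgeR 4.0.16 quasi-likelihood test (limma 3.58.1, R 4.3.3) in 1 model of all samples. A gene was called at a Benjamini-Hochberg adjusted p under 0.05 over all genes tested and a log2 fold change beyond 0.5, as in the study's methods. Standard errors and intervals come from the same fit. There were 7 comparisons, and the code was tested on simulated data. RPKM used the deposited exon lengths. Likeness was Pearson's r of log2 CPM with a prior count of 2. Alternatives were TMM, total counts alone, other filters, a replicate block, only the groups compared, DESeq2 1.42.0, no fold threshold and leaving out each sample. Replicates differed by more than sampling noise (chi-square per degree of freedom 14.2 to 54.4). The deviations of same-numbered samples from their group means correlated at 0.433 to 0.621 for CM + Rux with CM, 0.503 to 0.631 for CM + Rux + IKK-16 with CM + Rux, and 0.172 to 0.621 over the 15 pairs of the interaction. Same-numbered samples were thus alike in these data, but the labels state no pairing, and the main fit has no replicate block. Its standard errors, intervals and calls leave this likeness out. The fit with the block is given as an alternative.

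The 9 genes and the gene lists (cytokine receptors, STAT, SOCS and PIAS, other brakes, other phosphatases, cell markers) were chosen with earlier results of these data known. Of each list at most the 2 largest rises and 2 largest falls among called genes of a comparison are named, and for each kinase the 3 genes most alike. A gene that this rule names is not reported here. Figures were drawn with Python 3.11.15, pandas 2.3.3, numpy 2.4.6 and matplotlib 3.10.9.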

Additional observations from a re-analysis of the deposited data

How the results depend on the processing

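Of the 24 alternatives, that without a fold threshold keeps the main fit, and the others gave 828 recomputed log2 fold changes of the 9 genes. A sample was left out only in the comparisons that use it. Of the 828, 775 kept their direction and their side of the thresholds, 24 lost a call, 13 gained a call and 16 changed sign. The calls of Jak2, Jak3, Ptpn1 and Ptpn2 in CM against DMEM, of Jak3 and Ptpn1 in CM + Rux against CM and of Jak2 with IKK-16 held in every alternative. The number of the 9 genes called with IKK-16 was 3 and was 1 with total counts alone, where Ptpn1 was at -0.48 and Ptpn2 at -0.42. For the 2 h samples it was 1, and 0 with total counts alone (Sh2b3 0.47), 0 with the replicate block (Sh2b3 0.48), 3 without a fold threshold and 0 to 2 when a sample was left out. For the interaction it was 0, and 2 with the replicate block, without a filter and with DESeq2, and 0 to 1 when a sample was left out. For DMEM + Rux it was 0 to 1 when a sample was left out. The block ended 1 more call, Jak3 in CM + Rux against DMEM (0.45), beside Ptpn2 with IKK-16. It left 6 genes called in CM against DMEM, 2 in CM + Rux against CM and 0 in DMEM + Rux. Same-numbered samples correlated at 0.204 and 0.237 for CM with DMEM, 0.305 and 0.319 for DMEM + Rux with DMEM, and 0.349 and 0.351 for CM + Rux 2 h with CM + Rux. These comparisons have 2 pairs each. No pairing is stated in the labels, and the main fit took no comparison as paired. Over all genes, the 412 calls in CM + Rux against CM became 685 without a filter, 745 with the block, 258 without replicate 2 of CM and 243 without replicate 1 of CM + Rux. The 51 calls of the interaction became 90 with total counts alone, 349 without a filter, 444 with the block, 237 with DESeq2 and 17 to 114 when a sample was left out. Without a fold threshold the 957 calls with IKK-16 became 1778 and the 2883 of the 2 h samples 4726.

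Sign changes were of values near 0, other than that of Jak2 in the interaction (0.25). With 1 sample left out, the range was -0.17 to 0.12 for Tyk2 in CM, -0.14 to 0.0616 for Jak3, -0.17 to 0.0512 for Ptpn6 and -0.0953 to 0.11 for Sh2b3 in DMEM + Rux, -0.21 to 0.0623 for Ptpn6 in the 2 h samples, and -0.13 to 0.0917 for Ptpn6 and -0.0371 to 0.49 for Jak2 in the interaction. With the block, Sh2b3 in DMEM + Rux was at -0.0118 and Ptpn6 in the interaction at 0.000186. The DMEM and 2 h groups have 2 samples each, and where a gene was not called its interval, given beside it, shows which sizes of change the data leave possible.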
